A study of Mus musculus with 12 samples.

Results

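The alpha-globin locus of the mouse was examined as all consensus ATAC-seq peaks whose centre lies between positions 32140000 and 32310000 of chromosome 11 (build mm10, the same coordinates as GRCm38). That window of 170 kb held 36 of the 75281 peaks of the deposited table. By position, 7 were globin gene peaks, which overlapped or lay within 1 kb of Hba-x, Hba-a1, Hbq1b, Hba-a2 or Hbq1a. Another 12 were enhancer-region peaks, centred between the far end of Nprl3 and the start of Hba-x, 1 was the peak at the start of Nprl3, and 16 were flanking peaks. The rule used position and no measured value.

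The libraries came from bone marrow of the inbred NZO/HILtJ strain, known for obesity and diabetes, and the labels give no treatment or further genotype. ATAC-seq counts DNA fragments cut by the Tn5 transposase, so a higher count marks more open chromatin. Of the 12 libraries, 3 females and 3 males were 18 months old, and 3 females and 3 males were 3 months old, each library from a mouse with its own number, named here as in the labels (BM-252 is 1 of the 3-month males). No sequencing run held mice of both ages, so age and run cannot be told apart, and at 18 months each sex was a single run. The labels name bone marrow, whereas their protocol describes a sort of CD3e+ CD8+ T cells. Of 10 CD8 T cell markers, 4 (Cd3e, Cd8a, Cd8b1 and Bcl11b) had no peak within 3 kb of either end of the gene. Gene interiors farther from the ends were not searched. The other 6 had a peak by this rule, among them Cd3g (mean 62.7 CPM) and Cd3d (28.3 CPM). By the same rule all 12 erythroid, 10 myeloid and 10 B cell markers had a peak, and the erythroid genes Gata1 and Ahsp had none. Total counts in peaks ran from 7668099 to 12756647 per library, and the 36 peaks held 12 to 1204 counts each per library. A floor of 3 counts corresponded to 0.235 to 0.391 CPM (counts scaled to the total of the library), far below the levels described here. Levels are CPM after scaling by TMM factors, and the floor covers counting error alone.

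Haemoglobin of adult red cells is built from alpha chains, encoded by Hba-a1 and Hba-a2, and beta chains, encoded on another chromosome. Hba-x encodes the embryonic alpha-like chain, and Hbq1b and Hbq1a are the theta-like genes beside the adult pair. Hba genes are switched on in erythroid precursors by a cluster of upstream enhancers, R1, R2, R3, Rm and R4, of which most lie in introns of Nprl3, a widely expressed gene for a subunit of the GATOR1 complex that restrains mTORC1. In textbook accounts these sites lie 31, 26, 21, 12 and 8 kb before the start of Hba-x, and each of those 5 points fell inside a consensus peak. The R3 point lay close to the edge of its peak, so that name is the least certain. Erythroid factors such as GATA1, KLF1, TAL1 and NF-E2 are known to bind the enhancers and the globin promoters.

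The 250 bases before each gene's start are shown because the peaks treat these starts differently. They are RefSeq sequences on GRCm38.p6, read 5′ to 3′ along each gene's strand, and the start itself is the next base. Capitals mark matches, on either strand, to 4 short motifs. These are the GATA motif, spelled AGATAA or, equally, TGATAA; the motif of KLF factors, spelled CCNCNCCC and called the CACCC motif; the CCAAT motif; and the box spelled TATAA. Where matches overlap, their capitals run together, as in the G-rich stretch of Nprl3, where 4 CACCC matches share 1 run. Hba-x lies at chr11:32276350-32276599, Hba-a1 at chr11:32283422-32283671, Hba-a2 at chr11:32296242-32296491 and Hbq1b at chr11:32286714-32286963, all on the plus strand, and Nprl3 lies at chr11:32267708-32267957 on the minus strand.
Hba-x: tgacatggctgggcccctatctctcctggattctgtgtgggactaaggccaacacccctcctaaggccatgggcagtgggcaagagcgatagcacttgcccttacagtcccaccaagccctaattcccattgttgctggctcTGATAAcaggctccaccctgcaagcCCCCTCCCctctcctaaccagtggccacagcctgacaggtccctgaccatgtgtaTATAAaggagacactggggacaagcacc
Hba-a1: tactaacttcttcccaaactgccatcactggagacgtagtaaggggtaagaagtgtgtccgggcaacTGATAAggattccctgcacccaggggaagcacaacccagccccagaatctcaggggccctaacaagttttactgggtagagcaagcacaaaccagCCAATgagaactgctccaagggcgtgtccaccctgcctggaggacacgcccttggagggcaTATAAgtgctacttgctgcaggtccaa
Hba-a2: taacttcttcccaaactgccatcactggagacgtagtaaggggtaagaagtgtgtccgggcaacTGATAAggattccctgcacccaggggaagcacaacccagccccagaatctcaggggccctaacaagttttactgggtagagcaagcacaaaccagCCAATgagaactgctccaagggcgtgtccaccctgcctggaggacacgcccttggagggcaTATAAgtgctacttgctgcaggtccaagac
Hbq1b: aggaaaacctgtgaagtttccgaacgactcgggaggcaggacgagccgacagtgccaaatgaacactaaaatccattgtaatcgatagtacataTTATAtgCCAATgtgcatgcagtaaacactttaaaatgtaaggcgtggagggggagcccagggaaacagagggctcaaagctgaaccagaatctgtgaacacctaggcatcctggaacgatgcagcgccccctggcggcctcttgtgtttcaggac
Nprl3: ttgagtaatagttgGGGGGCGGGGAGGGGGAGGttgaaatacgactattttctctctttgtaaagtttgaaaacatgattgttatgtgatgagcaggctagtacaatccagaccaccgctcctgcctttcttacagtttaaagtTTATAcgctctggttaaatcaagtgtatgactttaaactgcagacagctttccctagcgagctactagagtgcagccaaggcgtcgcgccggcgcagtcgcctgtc

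Both adult genes carried matches to the GATA motif, to the CCAAT motif and to the TATAA box, and the last of these lay 27 bases before the start of Hba-a1 and 30 bases before that of Hba-a2. Hba-x had a match to the GATA motif, another to the CACCC motif and another to the TATAA box 28 bases before its start, and none to the CCAAT motif. Over 32851 RefSeq promoters of the same length, 16.6% held the GATA motif, 45.9% the CACCC motif, 33.8% the CCAAT motif and 22.8% the TATAA box. A match is a description of letters and shows no binding. The windows of 300 bases around the starts of Hba-a1 and Hba-a2 shared an identical run of 297 bases, and those of Hbq1b and Hbq1a agreed at 286 of 300 positions.

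The start of neither adult gene was inside a peak. Hba-a1, at 32283672 to 32284486, began 162 bp beyond the nearest peak, in a gap of 704 bp between peaks, and 33.4% of its body was covered. Hba-a2, at 32296492 to 32297310, began 904 bp from the nearest peak in a gap of 2291 bp, and its body was uncovered. Embryonic Hba-x also began outside any peak, 456 bp from the nearest. The starts of Hbq1b, Hbq1a, Nprl3, Snrnp25 and Mpg were inside peaks, that of Il9r lay 4621 bp from the nearest, and 40.5% of the 32851 RefSeq starts were. Of the 250 bases printed for each gene, 89 lay in a peak for Hba-a1, 0 for Hba-a2 and Hba-x, and 250 for Hbq1b and Nprl3. Whether reads that match both adult genes were kept is not given in the sources used here, and the part of the shared sequence in these gaps was not tested. Values for peaks beside the adult pair, and beside Hbq1b and Hbq1a, are uncertain to the extent that reads could be split between the copies.

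Chromatin of the alpha-globin locus was less open at 18 than at 3 months. Of the 36 peaks, 25 were lower at 18 months and 0 were higher (edgeR quasi-likelihood test with sex as covariate, Benjamini-Hochberg adjusted over 75164 tested peaks), against 11.6% lower and 9.43% higher among all tested peaks. DESeq2 gave 25 and 0, and at an unadjusted p under 0.05 the higher count was 0 as well. The median log2 fold change, 18 over 3 months, was -0.58 in the window (range -1.21 to 0.08) and 0.02 over all tested peaks. In 14 of the 36 peaks every 18-month library lay below every 3-month library, which held for 5.04% of all tested peaks, with the reverse in 2.2%. Fewer cells with an open locus and a less open locus per cell cannot be told apart in bulk libraries. Wide peaks were more often lower in these data: among tested peaks of 2000 bp or more, 40.3% were lower and the median was -0.20. When a smoothed trend of counts on peak width was first removed from each library (width offsets), 14 of the 36 were lower, against 2.64% of all tested peaks under that setting.

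**Figure D1:**
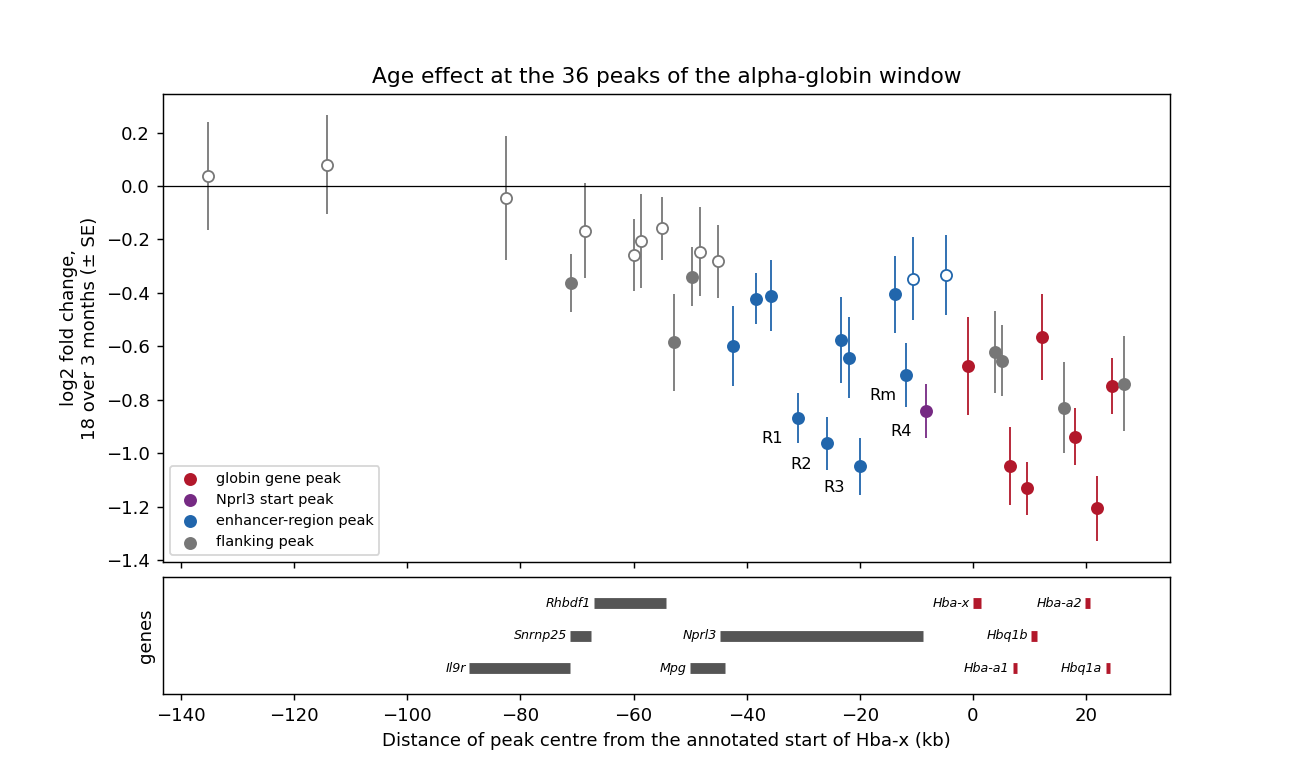
Log2 fold change (18 over 3 months, ± SE, 12 libraries) of each of the 36 peaks against the distance of its centre from the start of Hba-x in kb; filled points passed the edgeR test, open points did not, and bars below show the genes. The effects are near 0 at the left end, between -0.71 and -1.05 at the labelled enhancer peaks and -1.21 after Hba-a2. They do not deepen steadily: unlabelled peaks of the enhancer region lie between -0.64 and -0.33.

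By class, all 7 globin gene peaks fell with age (median log2 fold change -0.94, range -1.21 to -0.57), as did the Nprl3 start peak and 10 of the 12 enhancer-region peaks (median -0.59, range -1.05 to -0.33). With width offsets the globin gene count was 4 and the enhancer-region count 5, and with the same done for abundance (abundance offsets) the latter was 6. All 5 peaks holding the point of a known enhancer fell (median -0.87), under each alternative scaling, filter and left-out mouse, and in each the ages did not overlap. The 8 other enhancer-region peaks had a median of -0.42, 6 of them were lower, and the ages did not overlap in 1. Flanking peaks split by side. Of the 12 upstream of Nprl3's far end 3 were lower (median -0.22) and none was free of overlap, whereas all 4 among and after the globin genes were lower (median -0.70) and 3 were free of overlap. Summed over the 7 globin gene peaks, the lowest, median and highest library stood at 91.4, 99.0 and 114.1 CPM at 18 months and at 166.8, 199.7 and 221.6 CPM at 3 months.

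R1, the most distant of the enhancers from Hba-x, lay in the widest peak of the window, 6539 bp at chr11:32242345-32248883. Its level was 52.7 CPM in the lowest, 56.4 in the median and 59.2 in the highest 18-month library, and 86.8, 99.6 and 124.9 CPM at 3 months. No 18-month library reached the 3-month range. The mean was 56.2 ± 2.76 CPM at 18 months and 102.7 ± 14.99 at 3 months (SD, n = 6 each). It fell by 0.87 on the log2 scale (SE 0.093, edgeR adjusted p = 6.73e-10), or 45.2%.

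R2, the enhancer known to carry most of the activity of the cluster together with R1, lay in the adjoining peak of 3333 bp at chr11:32249121-32252453. The libraries stood at 28.3, 32.0 and 34.2 CPM (lowest, median, highest) at 18 months and at 51.5, 64.3 and 73.4 CPM at 3 months. Again the ages were apart, with a gap wider than the whole 18-month range. The log2 fold change was -0.96 (SE 0.099, edgeR adjusted p = 2.2e-10), and it was -0.96 in each sex.

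R3 lay in a peak of 1993 bp at chr11:32255588-32257580, with 15.2, 17.4 and 21.3 CPM at 18 months and 28.5, 36.5 and 41.6 CPM at 3 months. Its log2 fold change of -1.05 (SE 0.107, edgeR adjusted p = 2.07e-10) was the lowest point estimate of the 5 enhancer peaks. The highest 18-month library, BM-39, was still below the lowest 3-month library, BM-252. Rm, in the peak of 1332 bp at chr11:32264063-32265394, was the least abundant of the 5, with 9.43, 10.97 and 13.2 CPM at 18 months against 14.3, 18.9 and 21.2 CPM. Its log2 fold change was -0.71 (SE 0.120, edgeR adjusted p = 1.68e-05). In males alone that of Rm was -0.55 (adjusted p = 0.0198 by edgeR), and this call was lost without BM-38, BM-39 or BM-251 and with total-count scaling.

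R4 and the start of Nprl3 shared 1 peak of 3138 bp at chr11:32266825-32269962, so the enhancer and the promoter cannot be told apart there. Its libraries stood at 34.98, 36.28 and 41.85 CPM at 18 months and at 48.7, 68.5 and 86.9 CPM at 3 months. The 3-month libraries were spread widely, from BM-252 at the bottom to BM-245 at the top, and none entered the 18-month range. The mean was 37.7 ± 2.87 CPM at 18 months and 67.7 ± 13.4 at 3 months (SD, n = 6 each). This is a log2 fold change of -0.84 (SE 0.102, edgeR adjusted p = 1.62e-08).

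Not every wide peak inside Nprl3 fell as far as the enhancer peaks. The peak at chr11:32236495-32239908, 3414 bp wide and holding no known enhancer point, stood at 27.26, 33.2 and 34.99 CPM at 18 months and at 39.4, 43.7 and 49.1 CPM at 3 months. The ages did not overlap, yet the log2 fold change was -0.42 (SE 0.094, edgeR adjusted p = 8.71e-04). It no longer passed with offsets smoothed on abundance or width, where its largest adjusted p was 0.659. A neighbour at chr11:32240394-32241564 overlapped between the ages, with 7.16 to 10.1 CPM at 18 months and 9.60 to 15.1 CPM at 3 months. Its log2 fold change was -0.41 (SE 0.133, edgeR adjusted p = 0.0219), and the call was lost without BM-42, BM-251 or BM-244, with total-count scaling and with both kinds of offset.

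Among the globin genes, the most abundant peak ran over the end of Hba-a1 and all of Hbq1b, 3747 bp at chr11:32284215-32287961. Its libraries stood at 33.3, 35.8 and 41.7 CPM at 18 months and at 63.1, 82.9 and 95.1 CPM at 3 months. Every young library was at least 1.5 times the highest old one, BM-36. Means were 37.0 ± 3.62 CPM at 18 months and 81.0 ± 11.7 at 3 months (SD, n = 6 each), and the log2 fold change was -1.13 (SE 0.099, edgeR adjusted p = 7.43e-12), a fall of 54.3%. Over the settings tried it ranged from -1.20 to -0.84 and stayed called.

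The peak just before Hba-a1, at chr11:32282648-32283510, had 4.89, 7.10 and 9.49 CPM at 18 months and 11.1, 15.4 and 20.5 CPM at 3 months. It covers the first 89 of the 250 bases printed for Hba-a1, with the GATA match, and ends before the CCAAT and TATAA matches. The ages did not overlap and the log2 fold change was -1.05 (SE 0.146, edgeR adjusted p = 3.19e-07). In males alone it was -0.89, a call lost without BM-251.

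Hba-a2 had 1 peak on each side of its uncovered body. The upstream one, at chr11:32293602-32295588, stood at 13.0, 14.5 and 15.3 CPM at 18 months and at 23.7, 27.2 and 31.7 CPM at 3 months, a log2 fold change of -0.94 (SE 0.107, edgeR adjusted p = 3.17e-09). The downstream one, at chr11:32297880-32299135, stood at 7.15, 10.9 and 12.1 CPM against 20.3, 23.8 and 26.8 CPM. Its log2 fold change of -1.21 (SE 0.122, edgeR adjusted p = 1.65e-10) was the lowest point estimate of the 36. In both, the lowest young library exceeded the highest old one by over 1.5 times.

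The theta-like gene Hbq1a lay inside a peak of 3272 bp at chr11:32299543-32302814. Its libraries stood at 20.05, 20.98 and 28.05 CPM at 18 months and at 29.8, 37.7 and 41.1 CPM at 3 months, with BM-39 well above the other 18-month libraries. The log2 fold change was -0.75 (SE 0.104, edgeR adjusted p = 3.24e-07), and with width offsets the adjusted p was 0.0519. Before the embryonic gene Hba-x, the peak at chr11:32275239-32276144 was faint, with 3.02, 3.79 and 6.16 CPM at 18 months and 4.70, 6.39 and 8.98 CPM at 3 months. These values overlapped, and the log2 fold change was -0.67 (SE 0.182, edgeR adjusted p = 0.00567). A small peak after Hbq1b, at chr11:32288616-32289167, also overlapped between the ages, with a log2 fold change of -0.57 (edgeR adjusted p = 0.00841).

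**Figure D2:**
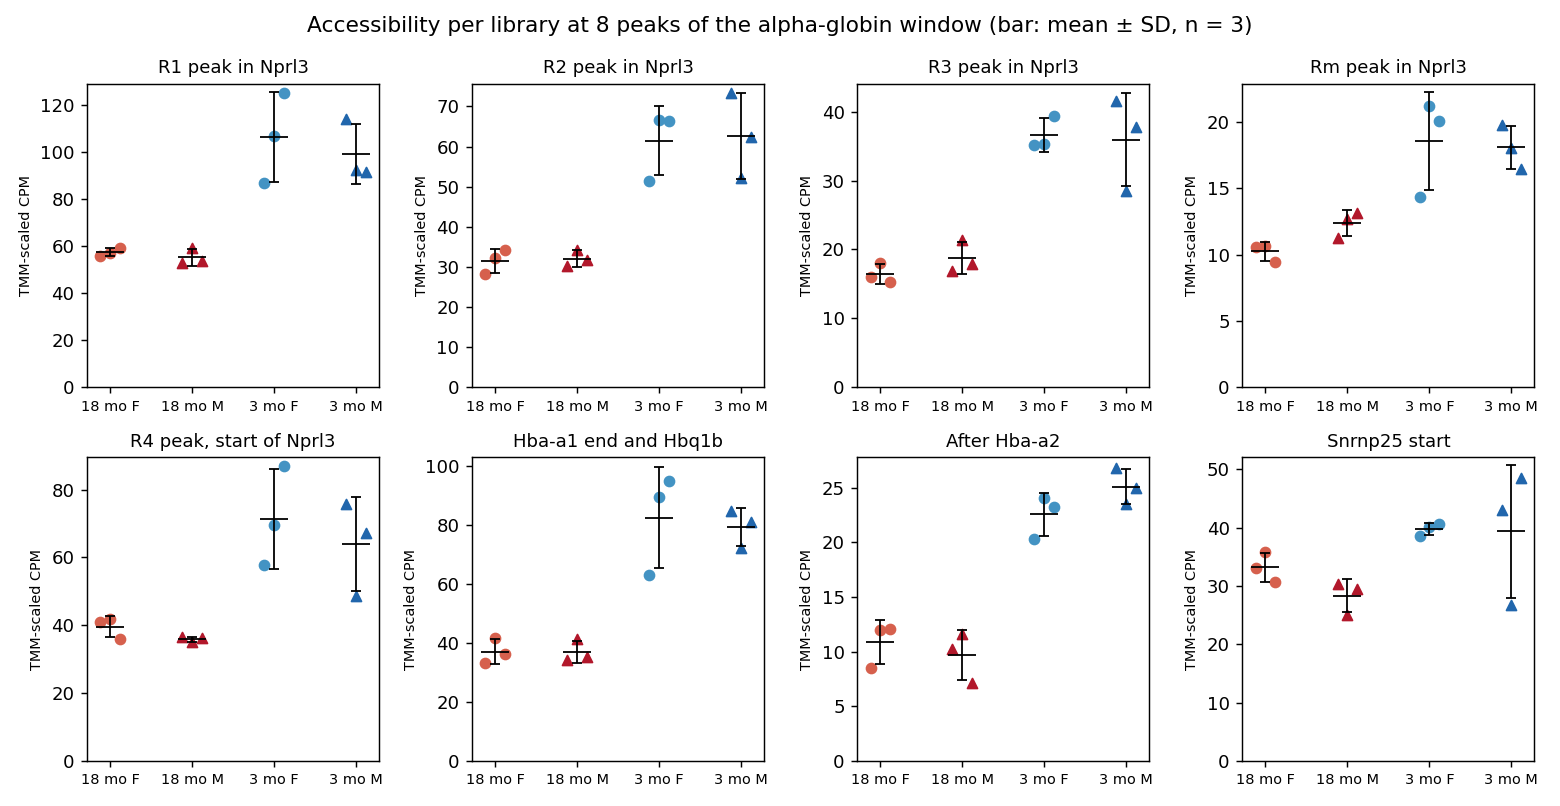
TMM-scaled CPM of each library at 8 peaks, by age and sex (circles female, triangles male; bars are mean ± SD, n = 3). In the first 7 panels every 18-month library lies below every 3-month library, and at the start of Snrnp25 the ages overlap.

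Read per length, 7 of the peaks described here were set side by side, a choice made after their values were seen. At 3 months the Hba-a1 and Hbq1b peak held 21.6 ± 3.11 CPM per kb and the Nprl3 start peak 21.6 ± 4.28, followed by the peak after Hba-a2 (19.0 ± 1.70), R2 (18.6 ± 2.61), R3 (18.2 ± 2.28), R1 (15.7 ± 2.29) and Rm (13.8 ± 1.93; SD, n = 6 throughout). Neighbours among these differed by less than 2 SD. Other peaks lay between and beyond them: the peak of the flanking gene Snrnp25 at 27.4 ± 4.998 and the peak just before Hba-a1 at 18.1 ± 4.05. At 18 months the Nprl3 start peak was the highest of these 7 at 12.0 ± 0.913 CPM per kb, and the other 6 lay between 8.17 and 9.88. The Snrnp25 peak stood at 21.3 CPM per kb at that age. Over all 7 globin gene peaks the means ran from 7.12 to 21.6 CPM per kb at 3 months and from 4.49 to 9.88 at 18 months, with the Hba-x peak lowest at both ages.

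Flanking genes served as a local comparison. Snrnp25 encodes a protein of the minor spliceosome, and the peak at its start, chr11:32204900-32206344, was the most abundant flanking peak. Its libraries stood at 25.1, 30.5 and 35.8 CPM at 18 months and at 26.6, 40.3 and 48.5 CPM at 3 months, and the ages overlapped through BM-252, the other 5 young libraries lying above every old one. The log2 fold change was -0.36 (SE 0.108, edgeR adjusted p = 0.0119), and it no longer passed with either kind of offset. At the start of Mpg, a DNA glycosylase of base excision repair, the log2 fold change was -0.34 (edgeR adjusted p = 0.0224), with overlap, and the call was lost under 5 of the alternatives, which include leaving out BM-36 or BM-38. At the end of Rhbdf1 that faces Mpg, which encodes an inactive rhomboid protein, the log2 fold change of -0.16 did not pass (edgeR adjusted p = 0.364). Beyond the window, within 500 kb, 13 of 50 peaks on the Nprl3 side were lower and 0 higher (median -0.29), and 3 of 33 on the other side were lower and 2 higher (median 0.05). Among all tested peaks 11.6% were lower and 9.43% higher.

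Ratios of counts within a library do not depend on a single scaling factor per library, but offsets that differ by peak (abundance or width) would move them. The Hba-a1 and Hbq1b peak stood at 0.598 to 0.729 of the R1 peak at 18 months (median 0.654) and at 0.727 to 0.887 at 3 months (median 0.773), and 5 of the 6 old libraries lay below the lowest young one. The difference of mean log2 ratios was -0.26 (SE 0.063, two-sided exact permutation test over 924 rearrangements, p = 0.00433, adjusted over 3 ratios 0.00649). Against the Snrnp25 peak the same globin peak went from a median ratio of 2.10 at 3 months (1.63 to 2.71) to 1.17 at 18 months (1.01 to 1.65). That difference was -0.77 (SE 0.152, exact permutation p = 0.00433, adjusted 0.00649), with 5 of 6 old libraries below all young ones. R1 over Snrnp25 changed by -0.51 (SE 0.152, exact permutation p = 0.013, adjusted 0.013), from a median of 2.66 to 1.78, with 4 of 6 old libraries below all young ones. Relative to the Snrnp25 peak, both the Hba-a1 and Hbq1b peak and the R1 peak were lower at 18 months. The Hba-a1 and Hbq1b peak was also lower relative to the R1 peak. With ages rearranged within each sex (400 rearrangements), each adjusted p was 0.015 by the same exact permutation test. Summed over all peaks of each class, the differences were -0.25, -0.64 and -0.39 (exact permutation, each adjusted p = 0.00216, the smallest possible). The enhancer-region sum includes 8 peaks with no known enhancer point (median log2 fold change -0.42). Known-enhancer peaks ran from -1.05 to -0.71 (median -0.87) and globin gene peaks from -1.21 to -0.57 (median -0.94). Ratios of other pairs of single peaks were not tested.

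**Figure D3:**
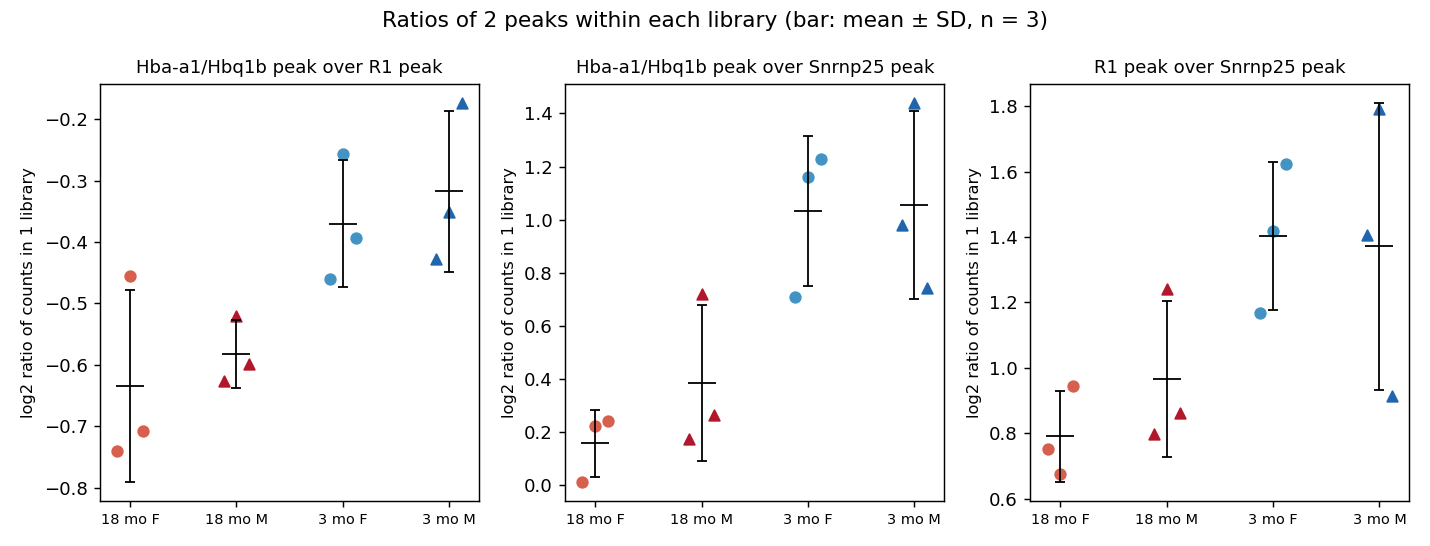
Log2 ratio of counts of 2 peaks in each library, by age and sex (circles female, triangles male; bars are mean ± SD, n = 3). In each panel the 18-month means lie below the 3-month means, by -0.26, -0.77 and -0.51 over both sexes, and single libraries overlap between the ages.

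The fall was present in each sex. In females 21 of the 36 peaks were lower at 18 months and 0 higher (edgeR, 3 against 3 mice), where 6.2% of all tested peaks were lower and 5.7% higher. In males 15 were lower and 0 higher, where 8.18% of all tested peaks were lower and 3.21% higher. These counts moved with single mice: the female count was 11 without 18-month BM-36, 13 without 3-month BM-245 and 13 without 3-month BM-244, and the male count was 9 without 3-month BM-251. The 5 known-enhancer peaks were called in both sexes (with width offsets R1, R4 and Rm were not called in females, where their largest adjusted p by edgeR was 0.0884), as were 7 globin gene peaks in females and 5 in males. In females the Hbq1a peak was not called with either kind of offset (largest adjusted p by edgeR 0.251). With offsets smoothed on abundance or width the female count was 11 or 7, and the male count 16 or 17. A different age effect between the sexes was called at 0 of the 36 peaks (edgeR and DESeq2 interaction, range of log2 differences, male minus female, -0.51 to 0.65, smallest adjusted p = 0.366 by edgeR), with 1 at an unadjusted p under 0.05, where 0.00532% of all tested peaks were called. A sex difference common to both ages was called at 0 peaks as well (edgeR and DESeq2, log2 range -0.22 to 0.34, smallest adjusted p = 0.635 by edgeR), with 1 at an unadjusted p under 0.05, where 0.162% of all tested peaks were called (0.0186% higher in males, 0.144% lower).

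Beta-globin and other genes of the haemoglobin pathway were read from 1 peak per gene, the most abundant within 3 kb of either gene end. Of 5 beta-globin genes 3 had a peak and all 3 fell: Hbb-bs, an adult beta chain, from 51.9 to 22.3 CPM (medians), a log2 fold change of -1.24 (SE 0.102, edgeR adjusted p = 1.23e-12), Hbb-bt, the other adult chain, by 0.82 and embryonic Hbb-y by 0.83. The starts of Hbb-bs and Hbb-bt lay inside other peaks, whose values were not read here. How alike the sequences under the adult beta-globin peaks are was not measured, and a sharing of reads between them was not tested. The counts in these lists stand beside 11.6% lower and 9.43% higher among all tested peaks, and 40.3% lower among those of 2000 bp or more. Several list peaks are wider than that: those of Zfpm1, Nfe2 and Klf1 span 16474, 13435 and 8220 bp. Of 12 regulators of globin genes 11 had a peak, and 8 of these fell and 0 rose (median -0.48). Zfpm1, the GATA1 cofactor FOG1, fell by 0.67, the p45 subunit gene Nfe2 by 0.43 and Klf1, the erythroid Kruppel-like factor, by 0.42. Zbtb7a, a repressor of fetal globin in human cells, had -0.23 (edgeR adjusted p = 0.0637), and Gata1 had no peak by this rule. In the list for haem synthesis and haemoglobin assembly 11 of 12 genes had a peak and all 11 fell (median -0.59), among them the porphyrin pathway enzymes Ppox, Alad and Urod, with log2 fold changes of -0.37, -0.37 and -0.31. The last 2 groups depended on the scaling: with abundance and width offsets 2 and 1 regulators and 4 and 2 haem genes were called, whereas the beta-globin count was 3 under every setting. Under these 2 kinds of offset 3.19% and 2.64% of all tested peaks were lower.

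Markers of marrow cell types moved with age as well. All 12 erythroid markers fell (median log2 fold change -0.95), 9 of them with no overlap between the ages, and 9 under either kind of offset. Among all tested peaks 5.04% were lower with no overlap, and 3.19% and 2.64% were called lower with abundance and width offsets. Slc4a1, the band 3 anion exchanger of the red cell membrane, fell by 1.14, Tspan33 by 0.89, the erythropoietin receptor gene Epor by 0.39 and Hemgn by 0.35. The calls at Epor and Hemgn were lost with both kinds of offset. Their summed level was 401.1 to 452.1 CPM at 18 months and 626.9 to 824.8 CPM at 3 months, and the lowest young library was BM-252. At the locus the lowest young library was BM-252 at R3 and at the Nprl3 start, and BM-243 at R1, R2, Rm, the Hba-a1 and Hbq1b peak and the peak after Hba-a2. Of 10 myeloid markers 6 rose and 0 fell (median 0.32), with a summed level of 343.6 to 401.7 CPM at 18 months and 268.4 to 394.6 at 3 months. BM-253 gave the top 3-month value, and the other 3-month libraries did not exceed 306.7 CPM. Of 10 B cell markers 0 passed by edgeR or DESeq2, with 2 lower at an unadjusted p under 0.05 (median -0.10). In females 1 of them was higher and 0 were lower (median 0.14), and in males 3 were lower and 0 higher (median -0.36). Their summed level in females was 168.3 to 187.5 CPM at 18 months and 149.7 to 160.1 CPM at 3 months, and in males 134.2 to 141.8 and 148.7 to 182.2 CPM, with no overlap of the ages in either sex. The smallest adjusted p of the edgeR interaction test among these markers was 0.224, at Blnk, and at 18 months sex and run coincide. Further, 2 of 5 megakaryocyte markers with a peak fell (median -0.06), a count of 0 with either kind of offset and of 1 with total counts or without BM-35, BM-39, BM-243 or BM-252. The B cell count lower at 18 months was 1 without BM-243 or BM-252. CD8 T cell markers had peaks for 6 of 10 genes, with 1 higher (Cd3d, 0.45) and a median of 0.05. The NK list (4 of 6 genes with a peak, median 0.21) and the stem and progenitor list (4 of 6, median 0.12) gave 0 calls by edgeR and DESeq2, with 1 gene higher in each at an unadjusted p under 0.05. The stem and progenitor count was 1 higher with total counts or without BM-40, BM-252 or BM-253. The part of the erythroid and myeloid marker shifts in the alpha-globin values was not tested.

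**Figure D4:**
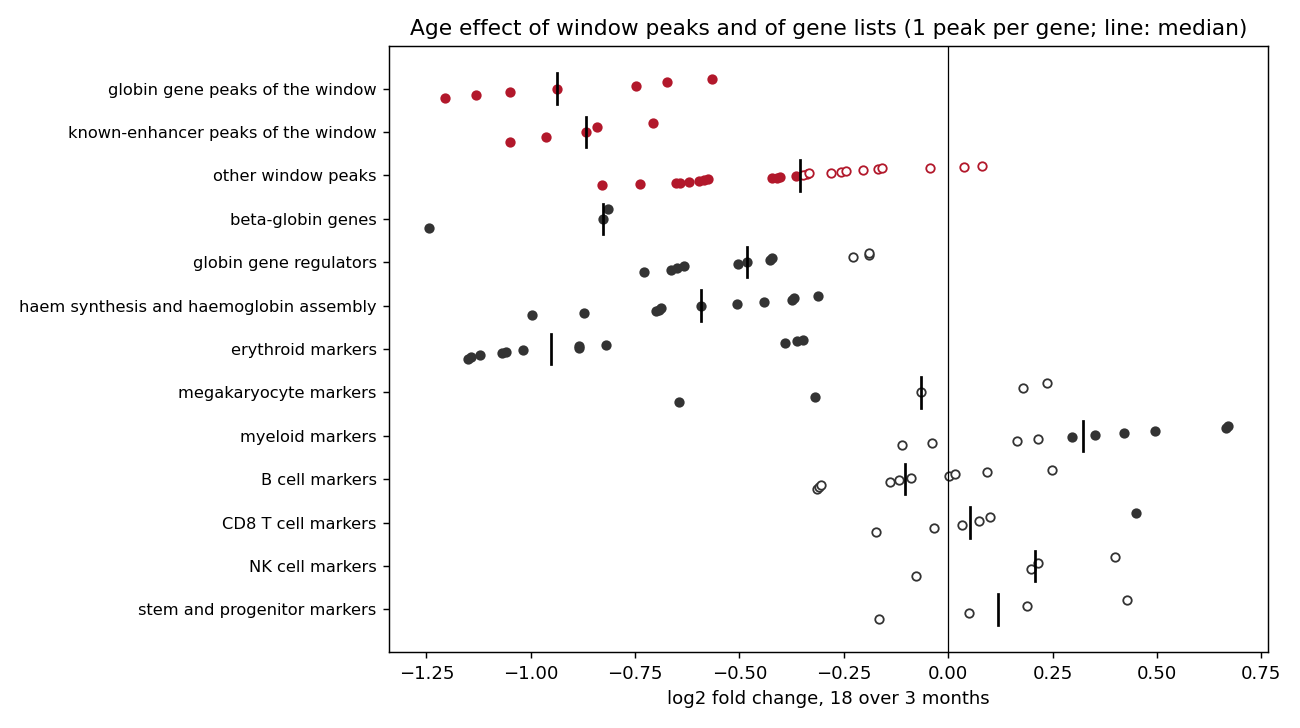
Log2 fold change (18 over 3 months) of peaks of the alpha-globin window, in red, and of 1 peak per gene in each gene list, in black; filled points passed the edgeR test, open points did not, and the vertical line in each row is the median. The medians of globin gene peaks (-0.94) and known-enhancer peaks (-0.87) lie within the range of the erythroid markers (median -0.95), and the myeloid markers have a median of 0.32.

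Over the 12 libraries, the peaks whose log2 CPM was most alike that of the Hba-a1 and Hbq1b peak were found among 37557 abundant peaks elsewhere in the genome. They lay in Aff1 (chr5:103736833-103738394, Pearson r = 0.993), in Ank1, which encodes the red cell ankyrin (chr8:23029907-23031698, r = 0.990), 4187 bp from Cldn13 (chr5:134917475-134921959, r = 0.989), in Tfdp2 (chr9:96256568-96260548, r = 0.989) and 10971 bp from Wapl (chr14:34660297-34662518, r = 0.988). Inside the window the same correlation was 0.59 to 0.983 for enhancer-region peaks, 0.942 for the Nprl3 start peak, 0.746 to 0.957 for the other globin gene peaks and -0.0231 to 0.927 for flanking peaks. These values describe 12 libraries that share the split by age and run, and no p-value is attached.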

How the data were processed

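ATAC-seq reads were processed by the authors with Trimmomatic, BWA, MACS2, DiffBind and edgeR on mm10, per the submitters' processing notes. Versions, whether peaks were called per library or on pooled reads, the consensus rule, duplicate removal and the Tn5 shift are not given in the sources used here. The authors deposited whole-number read counts, not normalized, for 75281 peaks in 12 libraries. The lowest value in the table is 1. Depth ranged from 7668099 to 12756647 counts per library, and 0 pairs of libraries were identical. Groups, mouse numbers and runs came from the labels.

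Peaks above 1 CPM in at least 2 libraries (75164, among them all 36 of the window) were fitted with edgeR 4.0.16 in R 4.3.3: TMM factors, the quasi-likelihood F test, a model with terms for age and sex over the 12 libraries, and a model of 4 group means for the effects within a sex and the interaction. P-values were Benjamini-Hochberg adjusted over all tested peaks, threshold 0.05. P-values measure the spread between these mice. On simulated data for the age effect (75164 peaks), 97% of 100 peaks changed by 1 on the log2 scale and 29% of 100 changed by 0.5 were recovered. The simulation gave every peak the same dispersion and changed peaks drawn at random, a far smaller share than the 21% called in the data. It therefore does not measure what could be detected at the peaks of the window. Ratios were tested by exact permutation, two-sided (scipy 1.17.1). Alternatives were DESeq2 1.42.0, total counts, loess offsets on abundance or width, no filter, no sex term, single sexes and leaving out each mouse.

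Named peaks followed a rule: of the globin gene, Nprl3 start and enhancer-region peaks the 12 most abundant in full, the 3 most abundant flanking peaks, up to 4 most abundant genes per list (1 of these is not reported here) and the 5 most alike peaks. Others named were chosen after their values were seen. Members and gene lists were chosen with earlier results of these data known. Enhancer positions are textbook distances and were added after the peak positions were seen. Genes and promoters were matched by position or symbol to RefSeq tables on GRCm38.p6, and promoters of 5 genes are printed. Enhancer sequences were not used here.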

Additional observations from a re-analysis of the deposited data

Results flagged for a closer look

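In 36 groups of 6 libraries of 1 age, 3 had a highest or lowest library far from the other 5 (gap over range above Dixon's critical value of 0.625), and chance gives about 1 in 20. At 18 months the peak in Nprl3 at chr11:32236495-32239908 was 27.3 CPM in BM-36, against 33.08 to 34.99 CPM in the other 5. At 18 months the Hbq1a peak was 28.1 CPM in BM-39, against 20.1 to 21.8 CPM in the other 5. In the same mouse the ratio of the Hba-a1 and Hbq1b peak to the Snrnp25 peak was 1.65, against 1.01 to 1.2 in the others at that age.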

How the results depend on the processing

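No paired analysis was possible because the replicate numbers are mouse numbers and no number was shared between groups. Calls lower at 18 months were 25 in the window, 17 with abundance offsets and 14 with width offsets. Width offsets gave 4 globin gene peaks, 5 enhancer-region peaks and 4 flanking peaks, and abundance offsets gave 6 enhancer-region and 4 flanking peaks. In females the window count went from 21 to 11 with abundance offsets and 7 with width offsets. These offsets lowered the count over all peaks too, from 11.6% lower to 3.19% and 2.64%. Of all calls in either direction 55.1% were lower with TMM factors, 58.2% with DESeq2, 37.2% with total counts, 39% with abundance and 39.5% with width offsets, and the median log2 fold change of all peaks moved from 0.02 to between 0.02 and 0.10. No window peak was called higher under any of them. Leaving out 1 mouse at a time gave 23 to 27 window peaks, 8 to 11 enhancer-region and 6 to 8 flanking peaks, 7 globin gene and 5 known-enhancer peaks each time, 11 to 23 in females and 9 to 15 in males, and ratio differences of -0.30 to -0.23, -0.86 to -0.69 and -0.60 to -0.43. Among results past the threshold signs reversed at the peak starting at 32236495 in females (0.01 with abundance, 0.09 with width offsets) and at Urod (0.00 and 0.01), and the cause was not tested. Among those short of it signs also changed at Zbtb7a (up to 0.12), at the peak starting at 32220833 (up to 0.02, and 0.15 in females) and at that starting at 32204900 in females (up to 0.13). A fit of the sex effect within the 3-month libraries with run as a factor rests on 2 pairs of mice that share a run, so its count of 0 says nothing. What size of change can be detected within 1 sex, with 3 mice per age, was not measured.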
